A study of Mus musculus with 16 samples.

Results

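The mitochondrial ribosome, or mitoribosome, is built from a large and a small subunit. Its proteins are all encoded in the nucleus, made in the cytoplasm and imported, whereas its ribosomal RNAs come from mitochondrial DNA. It translates the few mRNAs of the mitochondrial genome, which encode core subunits of the respiratory chain and ATP synthase, and neurons draw heavily on that chain for the energy that synaptic transmission costs.

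The mRNAs of the mitoribosomal proteins were examined in the medial prefrontal cortex (mPFC) of mice. All genes whose symbol starts with Mrpl or Mrps followed by a digit were taken, without pseudogenes, and this rule gave 78 genes of the 18424 in the table. Of these, 49 carried an Mrpl symbol and 29 an Mrps symbol. They are called large-subunit and small-subunit genes here by symbol alone. Neither the subunit nor membership in the mitoribosome was checked for each protein. For example, structures of the mitoribosome place Mrps30, counted with the small subunit, in the large one. All 78 were protein-coding, none was listed at 0 in any mouse, and all 78 passed the filter on low values in every comparison.

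The samples were poly-A RNA-Seq libraries of the mPFC from 16 male C57BL/6N mice at postnatal day (P) 120, with 4 mice in each of 4 groups. WT-Veh and WT-Flx were wild-type mice, and HT-Veh and HT-Flx were Arid1b+/- mice. The latter carry 1 truncated copy of Arid1b (a subunit of the BAF chromatin remodeler), made by CRISPR/Cas9 as a deletion at an early exon with TT inserted. Flx groups received fluoxetine, a serotonin reuptake inhibitor, through the milk of dams that drank 0.1 mg/ml fluoxetine in 0.2% saccharin water from P3 to P21, and Veh groups were nursed by dams on saccharin water alone. All pups were weaned at P21 and then drank plain water, so the libraries describe adults long after dosing had stopped, and every cell of an HT mouse carries the mutation. The labels do not tie mice to litters, so a litter effect and a treatment effect cannot be told apart, and dosing was given to dams rather than to single pups.

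Values are normalized read counts, scaled between libraries by the authors. Their totals lay between 92.8% and 104% of the mean of the 16 libraries. The raw depth is unknown. Arid1b itself averaged 2368 ± 432 (SD, n = 4) in vehicle and 2159 ± 233 in fluoxetine WT mice, and 1795 ± 160 in vehicle and 1636 ± 61.0 in fluoxetine HT mice, and its change over both treatments was -0.39 on the log2 scale (SE 0.080, adjusted p = 0.097, limma with Benjamini-Hochberg adjustment). The libraries labelled WT-Veh replicate 1 and WT-Flx replicate 1 had Arid1b values of 1787 and 1902, inside the HT range of 1545 to 2005, and these 2 libraries stood apart in the mitoribosomal genes as well. Arid1b therefore does not check the genotype label of these 2 libraries, and every WT value and genotype difference given here rests on the labels. The study states that only RNA above a limit of integrity was made into libraries. The RNA quality of these 2 libraries was not compared with that of the others here. Of the 9 olfactory bulb markers on the list, 8 were measured, and their mean log2 level ran from 5.26 to 9.88 in WT-Veh, from 5.96 to 9.50 in WT-Flx, from 5.31 to 8.23 in HT-Veh and from 5.01 to 5.72 in HT-Flx. It was over 6 in 5 of the 16 mPFC libraries: replicate 4 of HT-Veh, replicate 1 of WT-Veh, and all WT-Flx mice but the third. Among these markers Eomes was listed at 0 in HT-Flx replicate 3. The cortical marker Slc17a7, the vesicular glutamate transporter of projection neurons, was between 32162 and 43463 in all libraries.

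Promoter sequence was examined for letters that recur among the members. Nuclear genes for mitochondrial proteins are known for binding sites of NRF-1, of ETS factors such as GABPA, and of YY1. The RefSeq promoter table for GRCm38.p6 (300 bases each, 250 before and 50 after the start of transcription) held 75 promoters of 69 of the 78 members. The letters CCGGAAG (ETS core), on either strand, were in 34.67% of the member promoters, against 8.858% of all 32851 promoters and 14.54% of the promoters of genes in the expression table. GCGCATGC (NRF-1) was in 10.67% of member promoters, against 2.712% of all promoters and 4.456% of those of genes in the table. AAGATGGCG (YY1) was in 10.67%, against 1.403% and 2.422%. At least 1 of these 3 motifs was in 48.0% of member promoters, in 12.12% of all promoters and in 19.86% of the promoters of genes in the table, so that more member promoters held none of the 3 than held any. These shares are descriptions of letters, not of bound sites.

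The 30 bases around the match nearest the start of transcription are shown, once per motif, for the members whose levels are described below, since they let the same motif be compared between promoters. The strand is that of the gene, capitals mark the motif (CTTCCGG and GCATGCGC are the ETS core and the NRF-1 letters read on the opposite strand), and positions are those of GRCm38.p6. Mrpl53 held 2 matches to the ETS core, of which 1 is marked. Mrpl39 held 2 matches to the NRF-1 letters, 1 on each strand, which overlap within the window shown, and 1 is marked. The ETS core stood in 8 of them:
Mrpl17, chr7:105811307-105811336, minus strand: ggcatgctccgcCCGGAAGgcgcctcctcc
Mrpl21, chr19:3283037-3283066, plus strand: gcgctgcttccgCTTCCGGttgggactgtg
Mrpl27, chr11:94653724-94653753, plus strand: tgtccgcaagacCCGGAAGtagatctatcc
Mrpl33, chr5:31613936-31613965, plus strand: cccgcgcatgccCCGGAAGtagtcgttgag
Mrpl51, chr6:125192098-125192127, plus strand: ccaggggctaaaCCGGAAGtatttgactgg
Mrpl53, chr6:83109080-83109109, plus strand: ccagtgctactcCTTCCGGggtggaggtaa
Mrps21, chr3:95871479-95871508, minus strand: ccgtagcttccgCTTCCGGtccgcagagac
Mrps23, chr11:88204391-88204420, plus strand: ctgccgcttccgCTTCCGGtaacagcccga

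The NRF-1 letters stood in 3 of them, and in Mrpl33 they lay next to its ETS core:
Mrpl17, chr7:105811080-105811109, minus strand: gccgagttactGCGCATGCgtcctctgaga
Mrpl33, chr5:31613928-31613957, plus strand: taccggaacccGCGCATGCcccggaagtag
Mrpl39, chr16:84735349-84735378, minus strand: aggagaggcgcGCATGCGCccccgcgtggc

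The YY1 letters stood in 3 of them, each time on the gene's own strand and just after the start of transcription, with the first base of the motif 23, 26 and 27 bases after the start base in Mrpl35, Mrpl37 and Mrpl42:
Mrpl35, chr6:71823743-71823772, minus strand: aggcaggctgcAAGATGGCGgcttccatct
Mrpl37, chr4:107066822-107066851, minus strand: ctgcacgggcaAAGATGGCGgcgtccaggt
Mrpl42, chr10:95501904-95501933, minus strand: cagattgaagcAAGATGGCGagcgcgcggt

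By GENCODE M21 the windows of Mrpl17 at its ETS core and of Mrpl27 lay outside the gene, and each of the others touched an annotated exon of its own gene, since GENCODE starts several of these genes further upstream than RefSeq does. The 78 genes were spread over 17 chromosomes, with 1 to 11 on each. Exons of 28 members overlapped an exon of another gene on the opposite strand, and those of 8 members overlapped one on the same strand. Mrpl46, of the large subunit, and Mrps11, of the small one, overlap each other head to head. Pseudogenes named after a member exist for 3 of them, Mrpl23, Mrpl48 and Mrps36, and how reads were divided between these copies is uncertain.

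Levels per kilobase of exon differed widely between members. The median member had 234 normalized counts per kilobase over the 16 mice (244 for the large and 219 for the small subunit). The highest were Mrpl41, a mitochondria-specific protein of the large subunit, at 865 ± 95.2 (SD, n = 16), Mrps21, a small-subunit protein with a bacterial homologue, at 793 ± 112, and Mrpl27, whose bacterial homologue reaches the catalytic centre, at 616 ± 60.9. The lowest were Mrpl33 at 54.8 ± 8.08, Mrps35 at 47.8 ± 11.8 and Mrpl23, a protein at the exit of the peptide tunnel, at 24.0 (from 9.88 to 51.1 over the mice). The ranges of the 3 highest genes overlapped each other over the mice, from 752 to 1137 for Mrpl41, from 656 to 1096 for Mrps21 and from 534 to 761 for Mrpl27, and none reached the ranges of the 3 lowest. Divided by the longest transcript instead of all exons, Mrpl33 stood at 147 and Mrps35 at 89.6, and among the highest genes Mrps21 came first at 1200.5, Mrpl41 second at 989.9 and Mrpl27 moved to rank 5 at 802. The order at both ends thus depends on which exons are counted.

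Most members varied little between mice. The SD of the log2 value over the 16 mice had a median of 0.18 over the members, against 0.19 over the 8496 genes whose mean lay inside the range of the members. Mrpl37, a mitochondria-specific large-subunit protein, was the steadiest (SD 0.078), with 966, 848, 872 and 922 in WT-Veh and 871, 823, 852 and 918 in WT-Flx, then 957, 914, 818 and 858 in HT-Veh and 864, 895, 932 and 961 in HT-Flx. Mrpl50 followed (SD 0.094), between 647 and 861. Mrpl23 varied most (SD 0.60), with 130, 64.4, 125 and 150.5 in WT-Veh, 249, 112, 91.5 and 48.2 in WT-Flx, 112, 58.9, 147 and 160 in HT-Veh and 105, 79.3, 94.5 and 144 in HT-Flx. Its high and low values fell in every group, and it is also a gene with a named pseudogene in the GENCODE annotation. Mrpl19 (SD 0.34) ran from 382 to 835, again with high and low mice in HT-Veh and HT-Flx alike.

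**Figure D1:**
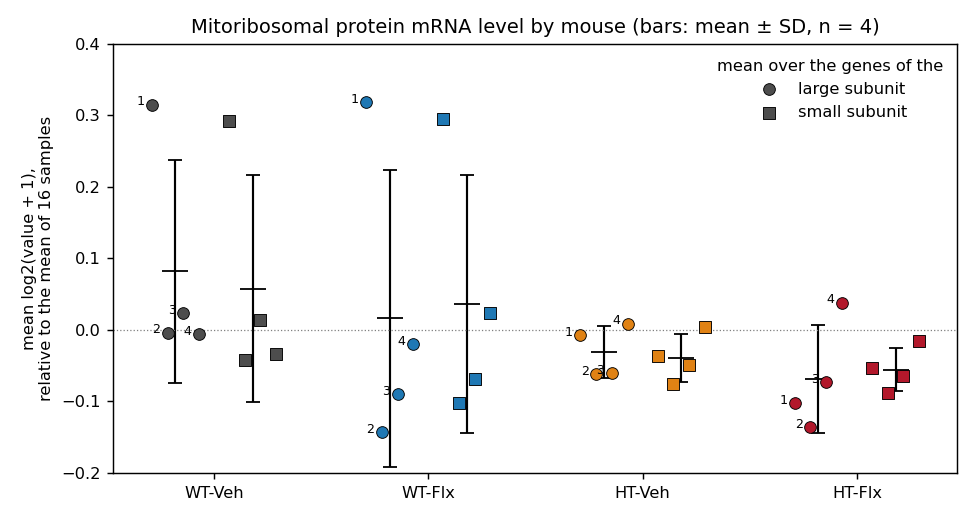
Mean log2(value + 1) of the 49 large-subunit genes (circles) and the 29 small-subunit genes (squares) in each mouse, relative to the mean of the 16 mice, with replicate numbers beside the circles and bars for the mean ± SD of each group (n = 4). In both subunits WT-Veh replicate 1 and WT-Flx replicate 1 stand near 0.3, and the other 14 mice lie between -0.14 and 0.038.

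Single mice differed more in the members as a whole than the group means did. The mean log2 level of the 78 genes was 9.36, 9.04, 9.08 and 9.04 in the 4 WT-Veh mice and 9.37, 8.93, 8.98 and 9.05 in the 4 WT-Flx mice. It was 9.04, 8.99, 9.002 and 9.07 in HT-Veh and 8.97, 8.94, 8.99 and 9.08 in HT-Flx. WT-Veh replicate 1 and WT-Flx replicate 1 were thus high by 0.31 against the mean of all mice, while the other 6 WT mice lay between 8.93 and 9.08 and the 8 HT mice between 8.94 and 9.08. The members took 0.211% and 0.202% of all normalized counts in these 2 mice and 0.147% to 0.167% in the other 14. In WT-Veh replicate 1, 76 of 78 members were above the mean of the other 3 mice of the group (median difference 0.30), where 50.8% of all genes were. In WT-Flx replicate 1 it was 75 of 78 (median difference 0.36), against 49.1% of all genes.

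Both subunits were high in these 2 libraries. Large-subunit genes were 0.32 and 0.32 above the mean of all mice and small-subunit genes 0.29 and 0.30. The 80 cytoplasmic ribosomal protein genes were also high there, by 0.43 and 0.30, as were the 38 nuclear genes of complex I, the first respiratory complex, by 0.42 and 0.33. The 13 mitochondrially encoded mRNAs, which the mitoribosome translates, were at -0.25 and -0.12.

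**Figure D2:**
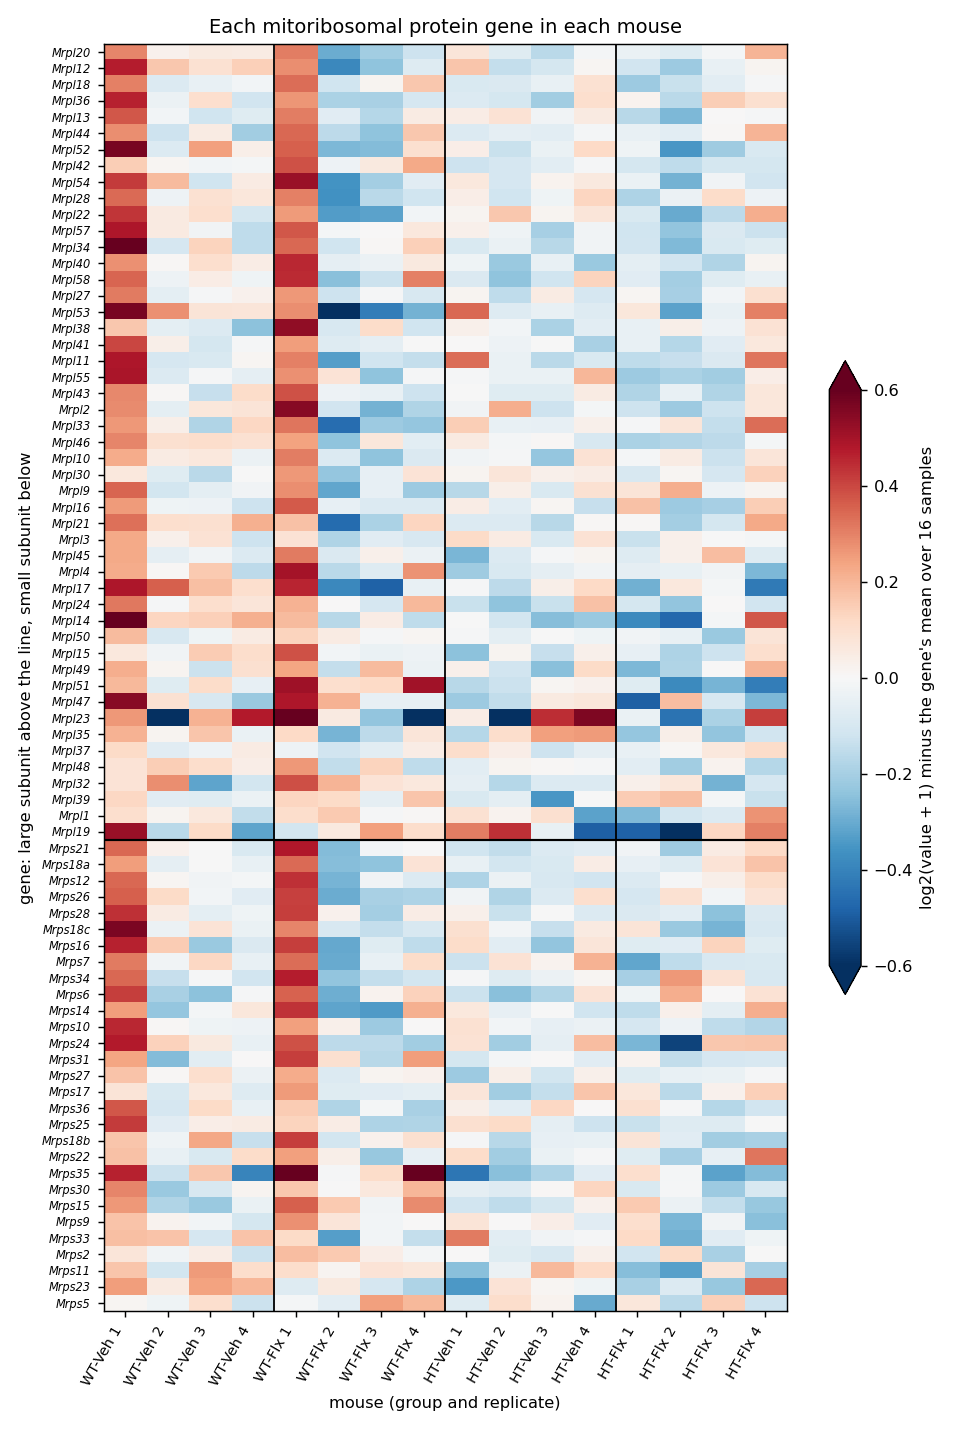
Each of the 78 genes (rows, large subunit above the line) in each mouse (columns), as log2(value + 1) minus the gene's mean over the 16 mice, with colours saturating at 0.6 and rows ordered by how closely a gene follows the mean of the other members. The columns of WT-Veh replicate 1 and WT-Flx replicate 1 are red over nearly all rows, and Mrpl23, Mrps35 and Mrpl19 show the strongest scatter of single mice.

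The same 2 libraries differed by transcript length. In WT-Veh replicate 1, other protein-coding genes stood 0.41 above the rest of the group where the longest transcript had up to 1000 bp, 0.28 above in the next class up to 2000 bp, 0.080 above in the class up to 4000 bp, and at -0.20 for longer ones. In WT-Flx replicate 1 the medians were 0.41, 0.28, 0.065 and -0.20. The members did not follow that slope at its far end. Their medians in WT-Veh replicate 1 were 0.43, 0.26, 0.25 and 0.35, and in WT-Flx replicate 1 0.46, 0.40, 0.34 and 0.32, over 17, 24, 26 and 11 genes. The longest transcript of a member had a median of 1866.5 bp and that of the other protein-coding genes tested 3457 bp. Of the 5 libraries with a bulb score over 6, WT-Flx replicate 4 and HT-Veh replicate 4 had a member mean at -0.004 and 0.007 of the mean of all mice and WT-Flx replicate 2 at -0.13. The 7 markers of cortical projection neurons were at -0.48 in WT-Veh replicate 1 and at -0.015 in WT-Flx replicate 1, and the 6 markers of GABAergic neurons at 0.41 and 0.10. The part of length, of bulb transcripts and of these cell types in the members' level was not tested, and in bulk tissue fewer cells of a type and less RNA per cell cannot be told apart.

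**Figure D3:**
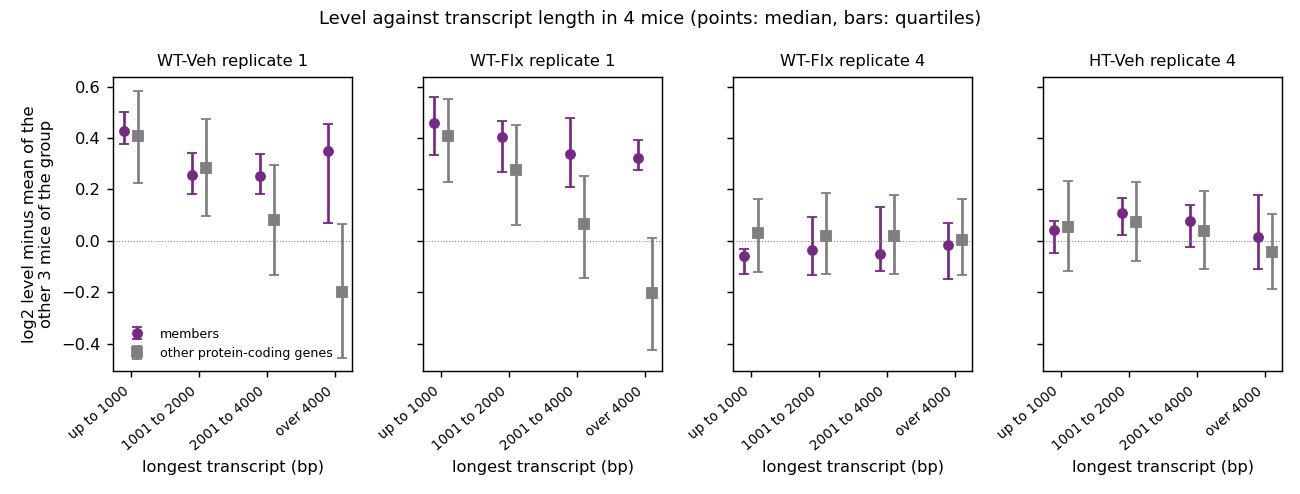
Median log2 level of a mouse minus the mean of the other 3 mice of its group (vertical axis; bars are quartiles) by longest transcript in bp (horizontal axis), for the members (circles) and other protein-coding genes (squares) in 4 mice. In WT-Veh replicate 1 and WT-Flx replicate 1 the other genes fall from 0.41 to -0.20 with length while the members stay at 0.25 or above, and in WT-Flx replicate 4 and HT-Veh replicate 4, which also had a bulb score over 6, both stay near 0.

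Within groups the members moved together mainly through these 2 mice. After each group's mean was removed, Pearson's r over the 16 mice had a median of 0.54 over the 3003 pairs of members (0.57 within the large and 0.49 within the small subunit), against -0.0029 for members with all other genes tested. It was 0.80 among cytoplasmic ribosomal protein genes, 0.64 between these and the members, and -0.41 between members and mitochondrially encoded mRNAs. Without WT-Veh replicate 1 and WT-Flx replicate 1 the member pairs had a median r of 0.13 over the remaining 14 mice (0.17 within the large and 0.075 within the small subunit), and cytoplasmic ribosomal protein genes 0.53. Between members and cytoplasmic ribosomal protein genes the median r was then 0.24, and between members and mitochondrially encoded mRNAs it was -0.092. The pairs share libraries and their depth, so these values describe the libraries. Mrps21 followed the mean of the other members most closely (r = 0.94), with Mrpl20 and Mrps18a at 0.93. Mrps5 (r = -0.17), Mrps23 (0.12), Mrps11 (0.18) and Mrpl19 (0.19) followed it least.

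The first question of the design was whether loss of 1 Arid1b copy changed adult mPFC transcripts in vehicle-treated mice. None of the 78 members passed the adjusted threshold of 0.05 in HT-Veh versus WT-Veh (smallest adjusted p = 0.92, limma), where 0.0178% of all genes did. In sign, 73 of 78 members were lower in HT-Veh, with a median log2 change of -0.10 (-0.11 for the large and -0.099 for the small subunit), against 48.2% of all genes lower and a median of 0.0062. At an unadjusted p under 0.05 stood 6 members, 7.69% of them and all lower, against a background of 4.88% in either direction. The 2 groups did not overlap in 6 members (Mrpl14, Mrpl21, Mrpl40, Mrpl46, Mrpl48 and Mrps12, named here after their values were seen), 7.69%, against 3.84% of all genes.

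This shift of the members shrank when 1 library was left out. Without WT-Veh replicate 1, 46 of 78 members were lower and the median was -0.026. Leaving out any other single mouse gave medians from -0.13 to -0.089. With the bulb score as a covariate, 69 were lower with a median of -0.085. Without the samples of bulb score over 6, which include WT-Veh replicate 1, 52 were lower with a median of -0.037. With the difference between short and long transcripts as a covariate, an alternative chosen after seeing the data, 48 were lower with a median of -0.023. By length, the members' medians were -0.15, -0.10, -0.060 and -0.10 from the shortest to the longest class, and those of other protein-coding genes were -0.11, -0.074, -0.013 and 0.053.

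Mrpl14 is a large-subunit protein with a bacterial homologue, found at the interface to the small subunit. It stood at 329, 224, 225 and 237 in WT-Veh and at 204, 189, 171 and 175 in HT-Veh. WT-Veh replicate 1 was the highest mouse, yet the other 3 WT-Veh mice also lay above all HT-Veh mice. Its log2 change was -0.44 (SE 0.14, adjusted p = 0.92) and ran from -0.50 to -0.29 over the alternatives.

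Mrpl21, another large-subunit protein with a bacterial homologue, stood at 535, 455, 454 and 493 in WT-Veh and at 400, 402, 378 and 426 in HT-Veh. No HT-Veh mouse reached the lowest WT-Veh mouse (log2 change -0.27, SE 0.089, adjusted p = 0.92; from -0.30 to -0.22 over the alternatives). Among the 5 members higher in HT-Veh, Mrpl30 had 812, 739, 693 and 774 in WT-Veh and 785, 816, 794 and 800 in HT-Veh, and these overlap (log2 change 0.084, SE 0.074). Mrpl35 averaged 593 ± 48.8 and 604 ± 79.3 (log2 change 0.020, SE 0.11).

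The second question was whether early fluoxetine left a trace in HT mice. In HT-Flx versus HT-Veh 0 members passed (smallest adjusted p = 1.00, limma), as did 0% of all genes, and 45 of 78 members were lower, with a median of -0.027. The median lay between -0.061 without HT-Flx replicate 4 and -0.0044 without HT-Flx replicate 2. At an unadjusted p under 0.05 stood 2 members (2.56%), Mrpl51 and Mrps7, against a background of 3.07%. The groups overlapped in all 78 members, and 1.99% of all genes had groups that did not overlap. Mrps7, a protein of the head of the small subunit, had 670, 777, 742 and 846 in HT-Veh and 590, 660, 686 and 687 in HT-Flx, so that only HT-Veh replicate 1 lay within the HT-Flx range (log2 change -0.21, SE 0.094). Higher in HT-Flx were Mrps6, at 318 ± 32.9 and 362 ± 28.2 (log2 change 0.19, SE 0.11), and Mrpl39, at 435 ± 44.5 and 490 ± 49.5 (0.17, SE 0.11), both with overlapping groups.

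In WT mice fluoxetine gave the same count. In WT-Flx versus WT-Veh 0 members passed (smallest adjusted p = 1.00, limma), as did 0% of all genes, and 50 of 78 were lower with a median of -0.036. At an unadjusted p under 0.05 stood 2 members (2.56%), both lower, against a background of 4.2%, and the groups overlapped in all 78, where 2.89% of all genes did not overlap. The direction turned with 1 library: the median was 0.027 without WT-Veh replicate 1, with 31 members lower, and -0.14 without WT-Flx replicate 1, with 64 lower and 15 at an unadjusted p under 0.05. It was -0.060 without both, an alternative chosen after seeing the data, with 52 lower and 9 at that p, and -0.11 with 60 lower when the bulb score was a covariate. It was also 0.012 without WT-Flx replicate 2, -0.0030 without WT-Flx replicate 3, -0.080 without WT-Veh replicate 2, -0.062 without WT-Veh replicate 3 and -0.071 without WT-Veh replicate 4.

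The 2 lower members here were Mrpl53 and Mrps23. Mrpl53, a mitochondria-specific protein of the large subunit, had 547, 445, 389 and 387 in WT-Veh and 448, 224, 276 and 302 in WT-Flx. Only WT-Flx replicate 1 reached the WT-Veh range (log2 change -0.53, SE 0.20). Mrps23, a small-subunit protein, was an exception to the pattern of the libraries, with 805, 703, 801 and 776 in WT-Veh and 640, 703, 630 and 595 in WT-Flx. The groups touch at 703, and WT-Flx replicate 1 was not its highest mouse (log2 change -0.26, SE 0.094). Higher in WT-Flx were Mrps15, at 513 ± 81.1 and 603 ± 68.2 (log2 change 0.24, SE 0.13), and Mrpl51.

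**Figure D4:**
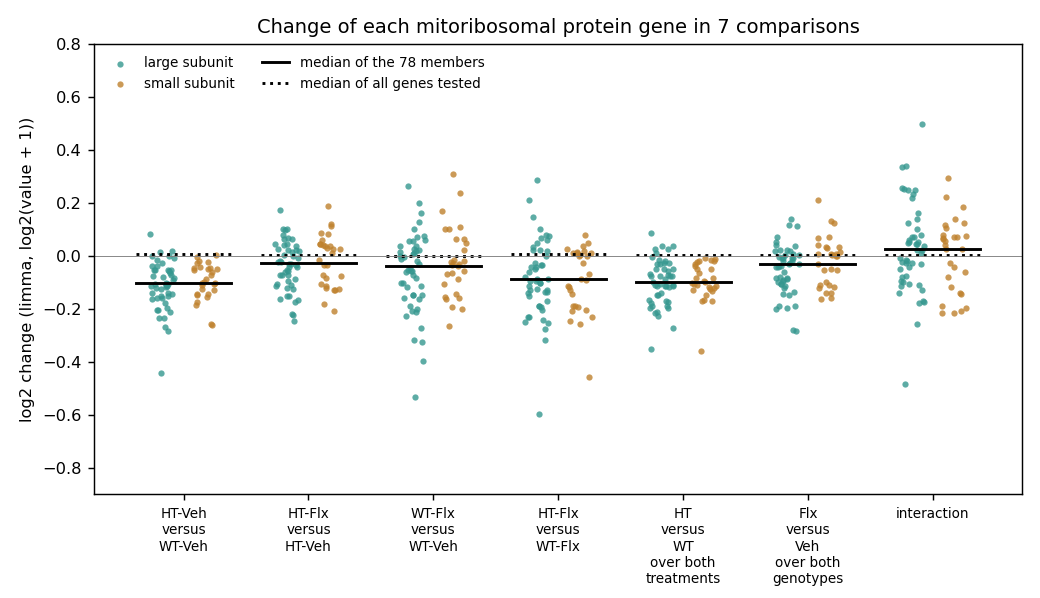
Log2 change of each of the 78 genes (points, large and small subunit side by side) in the 7 comparisons, with the median of the members (solid line) and of all genes tested (dotted line). The members' median is lowest at -0.10 for HT-Veh versus WT-Veh and for HT versus WT over both treatments, and Mrpl51 is the lowest point of HT-Flx versus WT-Flx at -0.59.

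Between genotypes after fluoxetine, HT-Flx versus WT-Flx, no member passed (smallest adjusted p = 0.29, limma) and 0.0417% of all genes did. Of the 78 members, 54 were lower in HT-Flx, with a median of -0.088, against 48.4% of all genes. At an unadjusted p under 0.05 stood 3 members (3.85%), all lower, below the background of 10.4%. The groups did not overlap in 4 members (Mrpl42, Mrpl51, Mrpl57 and Mrps30), 5.13%, against 5.83% of all genes. Without WT-Flx replicate 1 the median was -0.014 with 40 members lower. The bulb score was over 6 in all WT-Flx mice but the third and in no HT-Flx mouse. Genotype and bulb content therefore largely go together in this comparison. With the bulb score as a covariate 54 members were lower with a median of -0.073, and the smallest adjusted p was 0.999989 (limma).

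Mrpl51, a mitochondria-specific protein of the large subunit, had the smallest p of any member in this comparison. It stood at 890.5, 740, 842 and 753 in WT-Veh, at 1108, 836, 846 and 1104 in WT-Flx, at 694, 711, 787 and 792 in HT-Veh and at 740, 598, 642 and 585 in HT-Flx. WT-Flx was the highest and HT-Flx the lowest group, all HT-Flx mice lay below all WT-Flx mice, and the Veh groups lay between and overlapped each other. WT-Flx replicate 4 was as high as WT-Flx replicate 1, although the members as a whole were not high in it. Both of these mice had a bulb score over 6. The log2 change in HT-Flx versus WT-Flx was -0.59 (SE 0.13, adjusted p = 0.29), and over the 16 alternatives it lay between -0.67 and -0.42 with a smallest adjusted p of 0.10. With the bulb score as a covariate Mrpl51 had an adjusted p of at least 0.999989 (limma). Its log2 change was 0.26 (SE 0.13) with fluoxetine in WT and -0.22 (SE 0.096) in HT, and the interaction of genotype and fluoxetine was -0.48 (SE 0.16, unadjusted p = 0.0072, adjusted p = 0.998, limma). The difference of the fluoxetine effect between genotypes therefore did not pass over all genes.

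Mrps35, a mitochondria-specific small-subunit protein, had 612, 400.5, 435 and 621 in WT-Flx and 432, 399, 322 and 335 in HT-Flx. WT-Flx replicates 1 and 4 were again the high mice, while replicate 2 lay inside the HT-Flx range and replicate 3 just above it (log2 change -0.46, SE 0.17, adjusted p = 0.39). Mrpl42 had 899, 676, 719 and 807 in WT-Flx and 641, 622, 641 and 642 in HT-Flx, without overlap (log2 change -0.28, SE 0.11, adjusted p = 0.43). The smallest p among members higher in HT-Flx belonged to Mrpl53 (373 ± 66.0 against 312 ± 96.1, log2 change 0.29, SE 0.20) and Mrpl33 (419 ± 59.97 against 367 ± 90.0, log2 change 0.21, SE 0.17), and both overlapped.

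**Figure D5:**
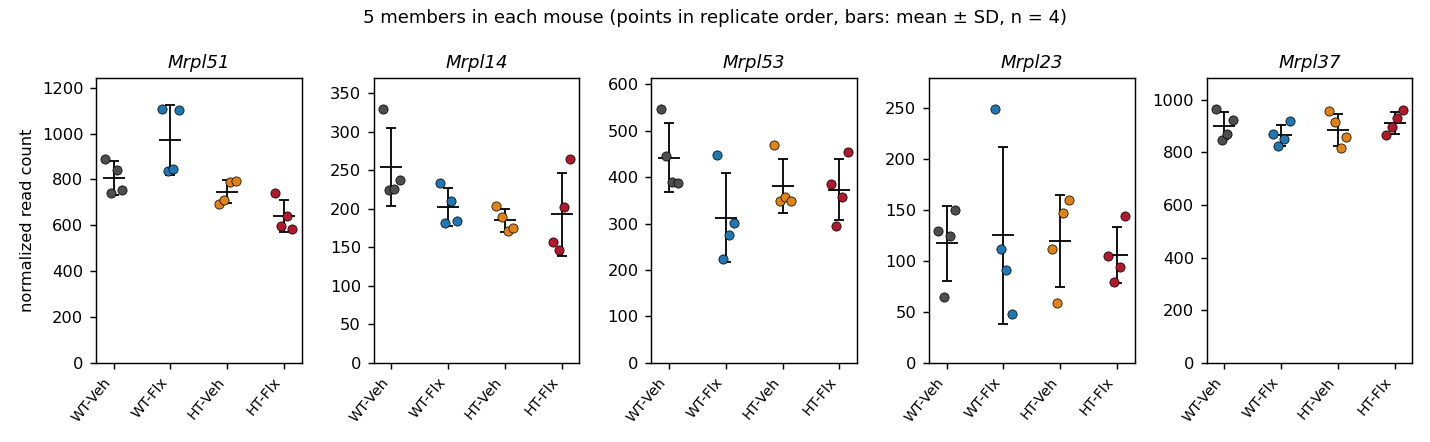
Normalized read count (vertical axis from 0) of 5 members in each mouse of the 4 groups, points in replicate order, bars for the mean ± SD (n = 4). Mrpl51 is highest in WT-Flx and lowest in HT-Flx, Mrpl14 is higher in every WT-Veh mouse than in any HT-Veh mouse, Mrpl53 is highest in replicate 1 of WT-Veh, WT-Flx and HT-Veh, Mrpl23 scatters in all groups and Mrpl37 stays between 818 and 966.

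Over both treatments, HT versus WT, 72 of 78 members were lower, among them all 29 with an Mrps symbol, with a median of -0.10, against 48.9% of all genes lower. None passed (smallest adjusted p = 0.26, limma) and 0.0398% of all genes did. At an unadjusted p under 0.05 stood 9 members (11.54%), all lower, against a background of 11.9% in either direction. The shift shrank to a median of -0.014 with 44 members lower without WT-Veh replicate 1 and WT-Flx replicate 1, and to -0.014 with 42 lower with the length covariate, both chosen after seeing the data. These are not separate checks, since the length covariate largely marks the same libraries. Relative to the mean of all mice it was 0.54 and 0.47 in them and from -0.22 to 0.030 in the others. The median change was -0.060 without the first and -0.062 without the second of these libraries alone, and -0.047 with the bulb score as a covariate. It was -0.0097 without the 5 libraries of bulb score over 6, which include both of these libraries. That omission leaves 1 WT-Flx mouse (its spread is then taken from the other groups) and was also chosen after seeing the data. Group means of the markers of 2 cell types differed by genotype, without a test and with mice that overlapped. The mean log2 level of the 6 GABAergic markers ran from 11.27 to 11.65 and from 11.11 to 11.44 in the vehicle and fluoxetine WT mice, and from 11.10 to 11.27 and from 11.09 to 11.18 in the HT mice. That of the 5 microglial markers ran from 10.14 to 10.39 and from 10.17 to 10.37 in WT and from 10.30 to 10.60 and from 10.27 to 10.53 in HT mice. The highest GABAergic level in WT-Veh (replicate 1), WT-Flx (replicate 4) and HT-Veh (replicate 4) was each time in a library of bulb score over 6. WT-Flx replicate 2, also over 6, was at 11.18. The part of these cell types in the members' shift, and of bulb content in these markers, was not tested.

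Mrpl51 had the smallest p here as well (log2 change -0.35, SE 0.096, adjusted p = 0.26), and all alternatives gave a value from -0.39 to -0.20. Mrpl42, the next, averaged 706 ± 38.9 and 775 ± 98.9 in the vehicle and fluoxetine groups of WT mice and 656 ± 23.7 and 637 ± 10.05 in those of HT mice (log2 change -0.19, SE 0.064, adjusted p = 0.32). Of the members higher in HT, Mrpl33 was at 0.086 (SE 0.11) and Mrpl37 at 0.026 (SE 0.054).

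Over both genotypes, Flx versus Veh, 48 of 78 members were lower with a median of -0.029. The median was 0.015 with 36 lower without WT-Veh replicate 1, and -0.067 with 65 lower and 13 at an unadjusted p under 0.05 without WT-Flx replicate 1. It was -0.0078 without WT-Flx replicate 2, -0.010 without WT-Flx replicate 3 and 0.00028 with the length covariate. None passed (smallest adjusted p = 1.00, limma), as did 0% of all genes, and 3 (3.85%) had an unadjusted p under 0.05, all lower, against a background of 3.11%. The smallest p among lower members belonged to Mrpl35, at 593 ± 48.8 and 604 ± 79.3 in WT-Veh and HT-Veh and 537 ± 69.3 and 507 ± 45.7 in WT-Flx and HT-Flx (log2 change -0.20, SE 0.081), and to Mrpl17 (-0.28, SE 0.12). Mrpl17 had 689, 632, 557 and 528 in WT-Veh and 676, 376, 351 and 477 in WT-Flx, where WT-Flx replicate 1 alone reached the WT-Veh mice. Mrps35 (0.21, SE 0.13) and Mrpl39 (0.14, SE 0.071) had the smallest p among higher members.

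For the interaction, 0 members passed (smallest adjusted p = 0.998, limma), as did 0% of all genes, and 1 member, Mrpl51, had an unadjusted p under 0.05 (1.28%, against a background of 4.29%). The median over the members was 0.025. It was -0.047 with 56 lower without WT-Veh replicate 1, 0.11 with 10 members at an unadjusted p under 0.05 without WT-Flx replicate 1, and 0.11 with the bulb score as a covariate. Leaving out WT-Flx replicate 2 or 3 or HT-Flx replicate 4 also turned its sign (-0.011, -0.011 and -0.014). After Mrpl51, Mrps30 had the smallest p among members with a negative interaction (-0.21, SE 0.15), and Mrpl53 (0.50, SE 0.26) and Mrpl21 (0.34, SE 0.19) among those with a positive one.

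The rest of the machinery for mitochondrial gene expression gave no call either. Over both treatments 0 of 5 mitoribosomal proteins with other symbols, 0 of 21 assembly and rRNA modification factors, 0 of 14 translation factors, 0 of 20 mitochondrial aminoacyl-tRNA synthetases and amidotransferase subunits and 0 of 11 regulators passed in HT versus WT (limma), and 4, 14, 9, 11 and 6 of them were lower, with medians of -0.049, -0.054, -0.042, -0.017 and -0.060, where 48.9% of all genes were lower. At an unadjusted p under 0.05 stood 0, 1, 0, 1 and 0 of them, against 11.9% of all genes. The gene of smallest p in each list was Gadd45gip1, a protein of the large subunit (log2 change -0.15, SE 0.074), Eral1, a chaperone of the small-subunit rRNA (-0.22, SE 0.071, adjusted p = 0.30), Taco1, an activator of the translation of a cytochrome oxidase subunit (0.14, SE 0.086), Rars2, the mitochondrial arginyl-tRNA synthetase (-0.14, SE 0.066), and Yy1 (0.099, SE 0.049). Eral1 had 331 to 410 in WT and 274 to 332 in HT mice.

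Outside mitochondrial translation, 37 of 38 nuclear complex I genes were lower in HT with a median of -0.12, as were 65 of 80 cytoplasmic ribosomal protein genes with a median of -0.063, and 5 of 13 mitochondrially encoded mRNAs with a median of 0.048. None of these genes passed (limma), and 10 (26.3%), 9 (11.25%) and 0 of them had an unadjusted p under 0.05, against 11.9% of all genes. The complex I and cytoplasmic ribosomal protein genes shared the high values of WT-Veh replicate 1 and WT-Flx replicate 1 described above. The mitochondrially encoded mRNAs were below the mean of all mice in both. The part of these 2 libraries in the medians of these lists was not tested.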

How the data were processed

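The authors sequenced poly-A RNA from the mPFC of 16 mice (TruSeq stranded libraries, paired-end reads) and quantified transcripts with Salmon 1.1.0 on GRCm38, with tximport and DESeq2 1.30.1 for gene level values. The deposited table holds a signal per gene, the normalized counts that the authors obtained after DESeq2 scaling. These values are not whole reads and do not give the depth, so no counting interval was computed and precision rests on the 4 mice per group. Of 18424 identifiers, 18411 matched a symbol in GENCODE M21.

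Comparisons were fitted with limma 3.58.1 in R 4.3.3 on log2(value + 1), with genes of at least 10 in at least 4 samples of the fit, a mean-variance trend and Benjamini-Hochberg adjustment over all genes, at 0.05. Pairwise comparisons used their 2 groups, and the effects over both treatments or genotypes and the interaction used all 16 mice. A log2 change on this scale understates that of low genes. The fit was tested on simulated counts with changes far larger than the members' shifts and without deviant libraries. That test therefore does not cover shifts of the size described here.

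The members, gene lists and named genes were chosen with earlier results of these data known. Named were the 3 highest and 3 lowest members per kilobase, the members of smallest p per comparison (2 higher, 2 lower), and those of largest and smallest SD. Levels per kilobase used the union of exons. Alternatives were another pseudocount, other filters, quantile normalization, a bulb score covariate, the replicate block, all 4 groups in 1 fit, leaving out single mice or mice with a bulb score (mean log2 level of the markers) over 6, and, added after seeing the data, a covariate of short minus long transcripts, leaving out 2 libraries together, and the omission by bulb score in the fits over both treatments or genotypes. Nothing in the labels says that mice came from separate litters, so p-values measure the spread between these mice.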

Additional observations from a re-analysis of the deposited data

Results flagged for a closer look

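Of 96 groups of 4 mice tested, 6 held a mouse that stood far from the other 3 by Dixon's ratio, taken against its 95% critical value, and chance gives about 1 in 20 groups.

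Among the genes, Mrpl41 was at 668 in HT-Veh replicate 4, below 747 to 765 in the rest of the group. Mrpl14 was at 329 in WT-Veh replicate 1, above 224 to 237. Mrpl53 was at 469 in HT-Veh replicate 1, above 349 to 357. Mrpl42 was at 764 in WT-Veh replicate 1, above 682 to 695, and at 622 in HT-Flx replicate 2, below 641 to 642, where the other 3 mice lay unusually close together. The mean log2 level of the 78 members was 9.36 in WT-Veh replicate 1, above 9.04 to 9.08 in the other 3 mice. WT-Flx replicate 1 was as high in that mean but did not stand apart by this ratio, because the other WT-Flx mice were more widely spread.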

How the results depend on the processing

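No member passed the adjusted threshold in any of the 7 comparisons under any alternative run (limma), but the members' median change depended on single libraries, as given beside each comparison. It moved by less than the SD between mice within groups (0.13, pooled over all 4 groups). That SD is larger than the median changes themselves, so it could not flag the loss of a shift. The SD was 0.16 in WT-Veh and 0.20 in WT-Flx, but 0.034 in HT-Veh and 0.058 in HT-Flx. The median went from -0.10 to -0.026 in HT-Veh versus WT-Veh without WT-Veh replicate 1. It went across 0 in WT-Flx versus WT-Veh, in Flx versus Veh and in the interaction. The counts over all genes changed as well. In HT-Veh versus WT-Veh the 3 genes became 22 with the bulb score as a covariate, 9 with the length covariate, 11 without samples of bulb score over 6, 0 with all 4 groups in the fit and 0 with the replicate block. In WT-Flx versus WT-Veh the 0 genes became 1 with the bulb score and 6 with the length covariate. In HT-Flx versus WT-Flx the 7 genes became 0 with a mean of at least 100, 4 with quantile normalization, 0 with the bulb score, 3 with the length covariate and 4 when the fit held all 4 groups. In HT versus WT over both treatments the 7 genes became 3 with the length covariate and 4 without samples of bulb score over 6, an omission chosen after seeing the data for this comparison. The cause was not tested.

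Leaving out 1 mouse at a time, the count ran from 0 to 2 in HT-Veh versus WT-Veh, from 0 to 4 in WT-Flx versus WT-Veh (8 without both WT-Veh replicate 1 and WT-Flx replicate 1), from 0 to 23 in HT-Flx versus WT-Flx and from 1 to 13 in HT versus WT over both treatments. The change of Mrpl35 in HT-Veh versus WT-Veh ran from -0.029 to 0.11 and turned its sign. The length covariate and the omission of these 2 libraries were also chosen after seeing the data.

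No label says that a shared replicate number marks a pair, and the numbers were not taken as pairs because in no comparison did all 4 correlate by over 0.1 in their deviations from the group means. The correlations lay between -0.23 and 0.31. In WT-Flx versus WT-Veh they were 0.31, 0.11, 0.19 and -0.20, and 3 of its 8 mice correlated best with their own number (2 to 4 of 8 in the other comparisons), so a partial pairing was not tested further. With the replicate block 0 members passed, as without it, and the members at an unadjusted p under 0.05 went from 9 to 15 in HT versus WT over both treatments and from 2 to 8 in WT-Flx versus WT-Veh. The depth behind each value is unknown, so counting error and the spread between mice could not be separated.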
